A study of Mus musculus with 4 samples.

Results

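Unc119, Pde6d, Arl3, Arl2, Arl2bp, Arl13b and Rp2 are the 7 genes described here, a set of proteins that carry lipid-modified cargo to the cilium. They were chosen by name, and all 7 were found by Ensembl gene identifier among 13452 Ensembl genes in the isoform table. Together they have 23 of 40703 isoforms of those genes. The tissue was mouse retina (C57BL6/J, an inbred strain; male, wild-type), taken apart into single cells with papain and read as full-length cDNA on a nanopore instrument. Of 4 libraries, 2 had no enrichment, 1 of them from postnatal day 40 and the other with no age given. The CD73 library came from week 8 and the CD90.2 library from month 4. The labels call both enriched, the protocol describes magnetic removal of cells with CD73 (a photoreceptor surface protein) and magnetic capture of cells with CD90.2 (a neuronal one), and the series design names sorting by flow cytometry. The table holds 1 column of counts for each of 6 cell classes, namely rods, cones, bipolar cells (BC), amacrine cells (AC), Müller glia (MG) and retinal ganglion cells (RGC). No column is tied to a library, so each class is 1 pooled value, no difference was tested, and every interval below is a 95% interval for counting error only. Whether a count is a read or a molecule is not given in the sources used here.

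Rhodopsin kinase, the catalytic subunits of rod and cone phosphodiesterase and the alpha and gamma subunits of transducin carry a prenyl or an acyl chain. They are made in the inner segment of a photoreceptor. Pde6d shields prenyl chains and Unc119 shields acyl chains, so that such proteins can cross the cytosol to the outer segment, which is a modified cilium. The small GTPase Arl3, in its GTP form, makes both carriers release their cargo. Arl13b loads Arl3 with GTP inside the cilium and Rp2 makes Arl3 hydrolyse it. Arl2 is the closest relative of Arl3 and also acts in tubulin folding, and Arl2bp binds both GTPases. Mutations in several human genes of this set cause retinal degeneration or ciliopathies.

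The sequences below carry the isoform differences that follow. They were read from the GENCODE M21 transcripts on build GRCm38, 5′ to 3′ on the strand of the gene. Capitals mark the exonic stretch that 1 isoform has and another lacks, or, for a first or last exon, the coding bases of that exon beside the shared coding sequence in lower case. The first is exon 9 of Arl13b (chr16:62801722-62801790, minus strand, 69 nt), the second the extension of Unc119 exon 5 (chr11:78348465-78348530, plus strand, 66 nt) and the third exon 4 of Pde6d (chr1:86545702-86545807, minus strand, 106 nt). The next pair are the ends of the coding parts of the 2 first exons of Unc119, downstream (chr11:78346735-78346759) and upstream (chr11:78343762-78343786). The last 3 are the ends of the Rp2 coding sequence in the proximal last exon (chrX:20397652-20397735), in the extra exon (chrX:20405208-20405234) and in the distal last exon (chrX:20405447-20405455), each up to and with its stop codon.
Arl13b exon 9: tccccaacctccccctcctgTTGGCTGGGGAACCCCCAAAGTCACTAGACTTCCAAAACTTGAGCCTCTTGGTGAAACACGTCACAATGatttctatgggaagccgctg
Unc119 exon 5 extension: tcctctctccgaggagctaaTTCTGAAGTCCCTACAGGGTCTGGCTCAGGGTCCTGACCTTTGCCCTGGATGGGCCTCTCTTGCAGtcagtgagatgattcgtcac
Pde6d exon 4: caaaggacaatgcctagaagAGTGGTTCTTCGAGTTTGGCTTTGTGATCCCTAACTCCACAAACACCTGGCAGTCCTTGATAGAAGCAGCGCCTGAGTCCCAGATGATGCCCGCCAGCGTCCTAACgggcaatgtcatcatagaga
Unc119 downstream first exon: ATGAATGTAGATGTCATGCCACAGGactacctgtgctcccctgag
Unc119 upstream first exon: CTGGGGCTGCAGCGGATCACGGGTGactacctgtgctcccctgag
Rp2 proximal last exon: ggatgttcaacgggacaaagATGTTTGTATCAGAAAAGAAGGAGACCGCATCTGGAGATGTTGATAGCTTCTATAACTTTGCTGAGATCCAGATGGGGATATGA
Rp2 extra exon: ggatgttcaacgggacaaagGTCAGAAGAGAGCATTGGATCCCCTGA
Rp2 distal last exon: ggatgttcaacgggacaaagATCCTCTAG

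Column totals ran from 3509890 counts in RGC to 55437340 in rods, so 3 counts correspond to 0.855 and 0.0541 CPM (counts scaled to a column total of 1000000). The marker lists matched the column names: all 6 rod markers were highest in the rod column, all 6 cone markers in the cone column, all 6 BC, AC and RGC markers in theirs, and 4 of 5 measured MG markers in MG. The summed rod markers, as a share of their level in the rod column, were at 0.646% in AC, 1.74% in BC, 4.19% in cones and 5.96% in MG. In RGC all 6 of them were at 0, Nrl, Gnat1 and Pde6a among them, and so were all 6 cone markers. The RGC column held 12483 detected isoforms, against 22365 in MG, the next smallest column. Whether the making of the RGC column affects its isoform shares was not tested. The MG column also held 5 of 6 pigment epithelium markers, at a summed 8827 CPM against 13.7 to 64.2 CPM elsewhere, with Best1 at 0. It held the 6 microglia markers at 1238 CPM, against 8.83 to 569.3 CPM elsewhere, all of them detected. The 2 measured astrocyte markers stood at 88.54 CPM in MG and at most 3.516 elsewhere. The 1 measured endothelial marker was at 7.663 CPM in MG and at most 0.4826 elsewhere. These sums are not split by marker.

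The 7 genes did not share 1 pattern over the classes. Arl3, Arl13b and Unc119 were highest in rods, Pde6d in cones, Arl2 in RGC, Arl2bp in AC and Rp2 in MG, and no gene of the set was highest in BC. Among 12099 genes with at least 20 counts in a column, 24.6% were highest in rods, 8.29% in cones, 13.9% in RGC, 21.3% in AC, 18.0% in MG and the rest in BC. With columns scaled by the median of ratios in place of the total, Arl3 was highest in cones and Arl2bp in MG.

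**Figure D1:**
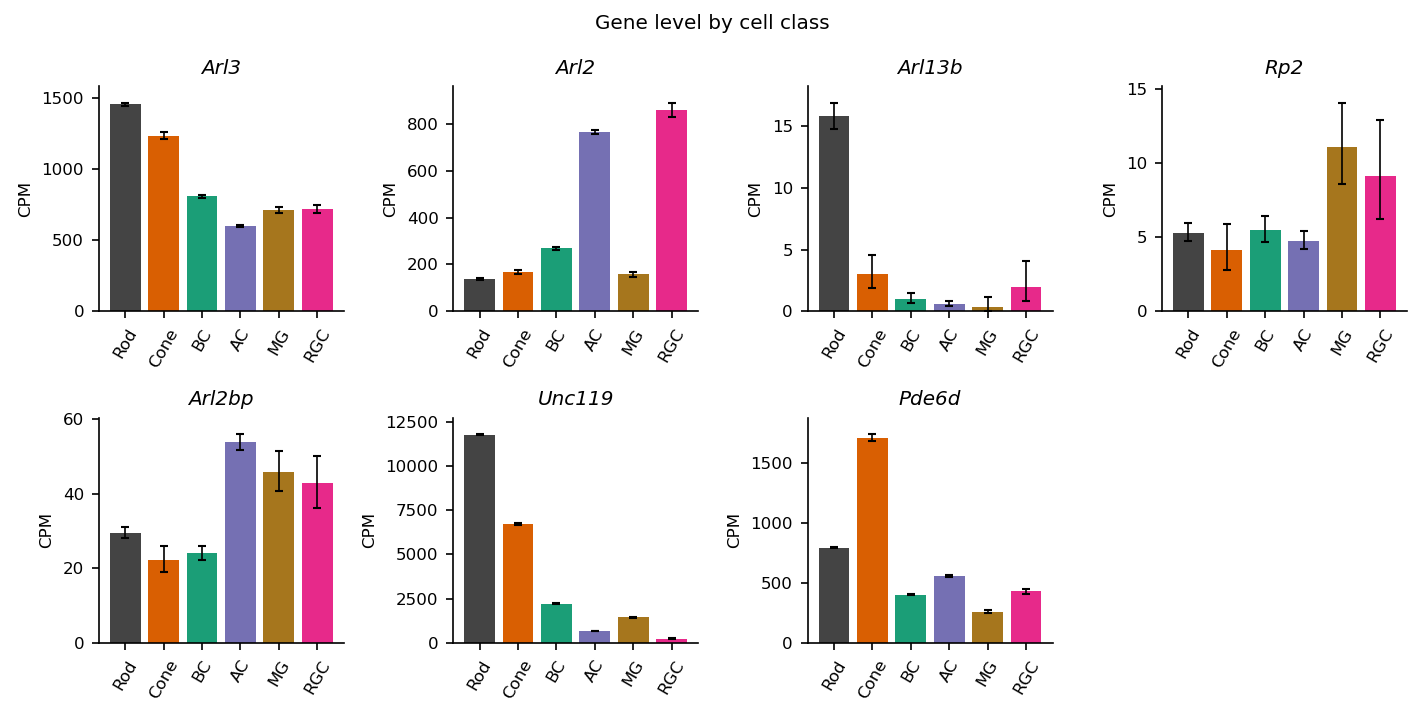
Level of each gene in each cell class in CPM (linear axis from 0, a separate scale for each gene). Bars are the pooled column values and whiskers exact 95% Poisson intervals; Unc119 runs from 11770 CPM in rods to 236.2 in RGC, whereas Arl2 runs from 137.2 CPM in rods to 858.7 in RGC.

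Arl3, the GTPase that releases cargo, was present in every class and highest in photoreceptors. Its level was 1458 CPM in rods, 1236 in cones, 811.4 in BC, 721.7 in RGC, 714 in MG and 603.6 in AC. The intervals of RGC (693.8 to 750.3) and MG (693 to 735.5) overlapped, and all other neighbours in this order were apart. Rods stood 1.179-fold above cones with columns scaled by their totals (log2 0.24, but -0.02 by the median of ratios), 2.415-fold above AC (interval 2.383 to 2.448) and 2.02-fold above RGC (1.942 to 2.102). Over all genes tested against RGC, 47.2% had a lower ratio of rods to RGC than Arl3, so its ratio lay near the middle. The table holds 1 isoform of Arl3, with 149419 counts (ENSMUSG00000025035.9, chr19:46531096-46573198, minus strand). Its 6 exons match an M21 transcript and read 182 codons before the stop.

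Arl2, the relative of Arl3, showed another order. It was at 858.7 CPM in RGC, 765.3 in AC, 268.3 in BC, 167.9 in cones, 158 in MG and 137.2 in rods. RGC and AC stood apart from the rest and from each other, while cones (158.7 to 177.6) and MG (148.2 to 168.3) overlapped. The level in RGC was 6.26-fold that in rods, and the level in AC 5.579-fold that in rods. Arl2 also had 1 isoform, of 5 exons and 184 codons, with 57520 counts (ENSMUSG00000024944.6, chr19:6134374-6141548, minus strand). The M21 gene Batf2 overlaps it on the opposite strand and had 0 counts in the table.

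Arl13b, which activates Arl3 in the cilium, had few counts outside rods. It had 877 counts in rods (15.82 CPM, interval 14.79 to 16.9), 22 in cones (3.011 CPM), 7 in RGC (1.994 CPM), 30 in BC (1.034 CPM), 29 in AC (0.6011 CPM) and 2 in MG (0.3261 CPM). Rods stood apart from every other class, and the intervals of the other neighbours overlapped. The ratio of rods to cones was 5.254 (3.448 to 8.428), to AC 26.32 (18.2 to 39.54) and to BC 15.3 (10.64 to 22.81). Against MG it was 48.51, with an interval of 13.39 to 401.2 from the 2 counts there. The ratio of rods to cones was higher than in 88.0% of tested genes, and that of rods to BC higher than in 96.1%.

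The most abundant isoform of Arl13b was not the same in all classes. The gene (ENSMUSG00000022911.11, chr16:62793685-62847040, minus strand) had 7 isoforms, of which 1 is annotated, with 10 exons and 427 codons. The most abundant isoform over the columns is unannotated and lacks exon 9, printed above; all 8 of its introns are in the M21 gene, but no M21 transcript joins them all. The 69 nt of exon 9 are a multiple of 3, and without them the frame reads 404 codons to the same stop. In rods this isoform had 635 of 877 counts (72.4%, interval 69.3 to 75.3) and the annotated 10-exon isoform 111. In AC the order was the other way round, with 22 of 29 counts on the 10-exon isoform (75.9%, 56.5 to 89.7) and 4 on the isoform without exon 9. Over the isoforms that reach the region, exon 9 was included in 13.5% of 824 rod counts (11.2 to 16.0), 4.55% of 22 cone counts (0.115 to 22.8), 22.7% of 22 BC counts (7.82 to 45.4) and 75.9% of 29 AC counts. All 7 RGC counts included it, for which the interval is 59.0 to 100%. The AC and RGC intervals lay above those of rods, cones and BC. The level of the 10-exon isoform itself was 2.002 CPM in rods (1.647 to 2.411) and 1.994 CPM in RGC (0.8018 to 4.109, from 7 counts). The whole gene was 7.932-fold higher in rods than in RGC (3.834 to 19.79).

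Exon 2 of Arl13b, 71 nt and not a multiple of 3, was skipped in 14.9% of rod counts (131 of 877, interval 12.6 to 17.5), in 9 of 22 cone counts (40.9%, 20.7 to 63.6), in 8 of 30 BC counts (26.7%, 12.3 to 45.9) and in 3 of 29 AC counts. When it is skipped and exon 3 is kept, as in the 8-exon isoform that also lacks exon 9, the frame from the annotated start stops after 22 codons, 998 nt before the last junction. When exon 3 (250 nt) is skipped with it and exon 9 too, the frame is kept and reads 297 codons. That isoform had 7 of 22 cone counts (31.8%, 13.9 to 54.9) and 47 of 877 rod counts (5.36%, 3.96 to 7.06), and these intervals did not overlap. A pair of isoforms ended early, with exon 8 running 59 nt further as a last exon. They had 8 of 30 counts in BC (26.7%, 12.3 to 45.9) and 44 of 877 in rods (5.02%, 3.67 to 6.68), and 0 in the other 4 classes. A last isoform, with 9 counts, all in rods, joined Arl13b exons to exons of the downstream gene Nsun3.

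**Figure D2:**
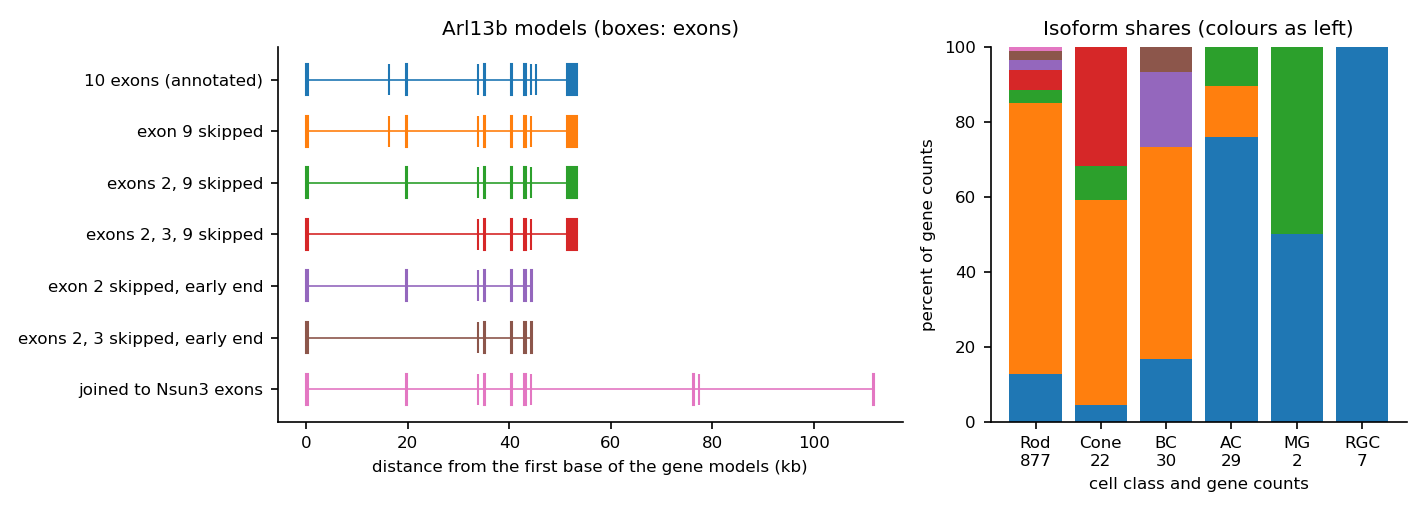
Left, exon models of the 7 Arl13b isoforms, drawn to scale in kb from the first base (boxes, exons; lines, introns). Right, the percent of Arl13b counts on each isoform by class, with the count of the gene under each bar; the isoform without exon 9 (orange) has 72.4% of rod counts and 0 of 7 in RGC.

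Rp2, the protein that switches Arl3 off, had between 30 and 294 counts in each class. It was at 11.09 CPM in MG (68 counts), 9.117 in RGC (32 counts), 5.515 in BC, 5.303 in rods, 4.767 in AC and 4.106 in cones (30 counts). The intervals of all neighbours in this order overlapped, while the 2 ends did not meet: the level in MG was 2.701-fold that in cones (1.733 to 4.3). It was also 2.091-fold that in rods. The pigment epithelium and microglia markers of the MG column stood high beside this value, and their part in it was not tested.

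The last exon of Rp2 differed between RGC and the other classes. The gene (ENSMUSG00000060090.16, chrX:20364481-20405653, plus strand) had 5 isoforms, of which 2 are annotated and 1 has no deposited model. The most abundant has 5 exons, ends in the proximal last exon and reads 347 codons. In MG it had all 68 counts, in rods 246 of 294 (83.7%, interval 78.9 to 87.7), in BC 141 of 160, in cones 26 of 30 and in AC 172 of 230. In RGC it had 0 of 32. All 32 RGC counts were on an unannotated isoform with 6 exons, the fifth being an extra exon of 117 nt (chrX:20405208-20405324) before a distal last exon (chrX:20405447-20405630). For the use of the distal last exon the interval was 89.1 to 100% in RGC, against 19.2% in AC (41 of 213, 14.2 to 25.2), 11.6% in rods (34 of 294, 8.14 to 15.8), 9.38% in BC (15 of 160) and 3.33% in cones (1 of 30). In MG it was 0 of 68, with an upper bound of 5.28%.

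Among the counts that used the distal last exon, the extra exon was present in 32 of 32 in RGC, 13 of 15 in BC and 18 of 34 in rods, but in 4 of 41 in AC (9.76%, 2.72 to 23.1). The 3 endings printed above begin at the same splice donor. The extra exon contributes 27 nt up to and with its stop, which lies 90 nt before the last junction, and the frame has 328 codons; the distal exon alone gives a frame of 322 codons. The isoform with an extra second exon, which is annotated and reads 310 codons, had 14 of 294 counts in rods, 3 of 30 in cones and 4 of 160 in BC. The isoform without a model had 17 counts, all in AC. The M21 gene Gm14537 overlaps Rp2 on the same strand and had 0 counts in the table.

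**Figure D3:**
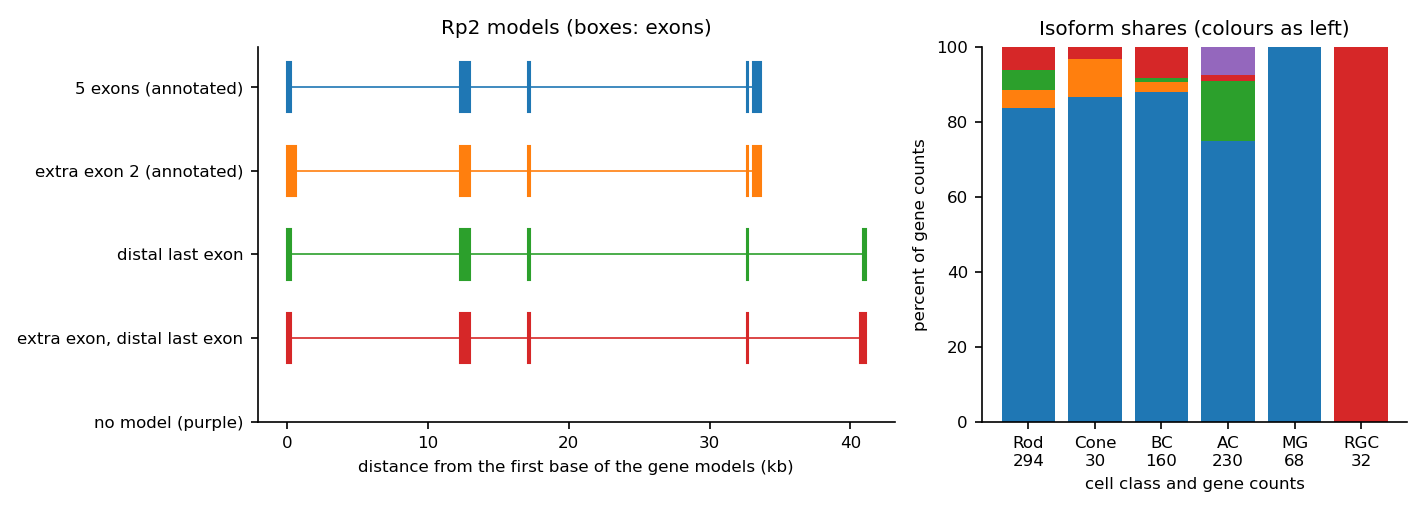
Left, exon models of 4 Rp2 isoforms in kb from the first base; the fifth isoform has no model. Right, the percent of Rp2 counts on each isoform by class, with the count of the gene under each bar; RGC counts are all on the isoform with the extra exon and the distal last exon (red), which has 6.12% of rod counts.

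Arl2bp, which binds both GTPases, was higher in AC, MG and RGC than in photoreceptors and BC. It was at 53.78 CPM in AC (51.73 to 55.89), 45.82 in MG (40.62 to 51.5), 42.74 in RGC (36.17 to 50.15), 29.53 in rods (28.12 to 30.99), 23.99 in BC and 22.17 in cones. MG and RGC overlapped, as did BC and cones; AC stood above all others and rods between the 2 pairs. AC exceeded rods 1.821-fold and cones 2.426-fold, so that rods missed a 2-fold difference and cones met it. The sums of markers listed for other cells, high in the MG column, stand beside its Arl2bp value too, and their part was not tested.

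Of 3 Arl2bp isoforms (ENSMUSG00000031776.17, chr8:94666600-94674425, plus strand), the 6-exon isoform of 163 codons had 86.7% to 96.8% of counts in each class. An annotated isoform with a first exon longer by 329 nt (chr8:94666902-94667230) had its largest shares in AC and RGC. It had 253 of 2595 counts in AC (9.75%, 8.63 to 11) and 20 of 150 in RGC (13.3%, 8.34 to 19.8). In rods it had 12 of 1637 (0.733%, 0.379 to 1.28), in BC 11 of 696 (1.58%), in cones 2 of 162 (1.23%) and in MG 0 of 281, with an upper bound of 1.3%. The AC and RGC intervals overlapped each other and lay above those of the other 4 classes. Its annotated frame has 152 codons. The unannotated isoform, with 167 counts, skips exon 3 (107 nt) and stops after 41 codons, 157 nt before the last junction. It had 2.74% of AC counts, 2.75% of rod counts and 5.03% of BC counts, with overlapping intervals for rods, cones, MG and AC.

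Unc119, the carrier of acylated proteins, was highest in photoreceptors. Its level was 11770 CPM in rods, 6747 in cones, 2216 in BC, 1457 in MG, 673 in AC and 236.2 in RGC, and all neighbours were apart. The ratio of rods to cones was 1.745 (1.729 to 1.761), to BC 5.312, to MG 8.082, to AC 17.49 (17.3 to 17.69) and to RGC 49.85 (46.57 to 53.43). The ratio of rods to RGC was higher than in 93.3% of tested genes, and that of cones to AC (10.02) higher than in 95.5%. As a share of the rod level, Unc119 was at 57.3% in cones, 18.8% in BC, 12.4% in MG, 5.72% in AC and 2.01% in RGC. Each of these shares was above that of the summed rod markers in the same column, given above. Those markers do not stand for every rod gene. Gngt1, of rod transducin, was at 44570 CPM in rods, 21830 in cones, 6378 in BC and 5190 in MG. How far rod RNA contributed to Unc119 in the other columns was not tested.

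Unc119 (ENSMUSG00000002058.13, chr11:78343482-78349164, plus strand) had 4 isoforms, all annotated, with 808524 counts. The main isoform, of 5 exons and 240 codons, had 82.0% of counts in cones and 93.3% in AC, the lowest and highest of the classes. The second isoform starts from a downstream first exon of 94 nt (chr11:78346666-78346759) in place of the upstream one (chr11:78343506-78343786). Both first exons splice to the same second exon, as the shared lower-case bases printed above show. The downstream start gives an annotated frame of 175 codons in place of 240. Its share was 9.48% in cones (9.22 to 9.74), 6.55% in rods (6.49 to 6.61), 6.42% in MG (5.93 to 6.95), 3.68% in BC (3.54 to 3.83) and 0.674% in AC (0.588 to 0.77). In RGC it was 0 of 829, with an upper bound of 0.444%. Rods and MG overlapped, and cones stood above all. As a level, the isoform was at 770.8 CPM in rods, 639.4 in cones, 93.59 in MG, 81.66 in BC and 4.539 in AC. As a share of its rod level, the isoform was at 83.0% in cones, 12.1% in MG, 10.6% in BC and 0.589% in AC. The summed rod markers were at 4.19%, 5.96%, 1.74% and 0.646% in these columns, and the RGC column had neither. How far rod RNA contributed to this isoform in the other columns was not tested.

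The longer last exon of Unc119 adds the 66 nt printed above. The change keeps the frame and gives 262 codons. It had 13.5% of RGC counts (112 of 829, 11.3 to 16.0), against 6.84% in cones (6.62 to 7.07) and 4.8% to 5.23% in AC, MG, rods and BC, so RGC lay above all others in share. In level it was still lowest in RGC and AC, at 31.91 and 32.29 CPM, against 580.9 in rods. The last isoform keeps the intron of 187 nt between exons 3 and 4 (chr11:78347900-78348086). A stop codon begins at base 2 of that intron, after 146 codons and 356 nt before the last junction. The share of this isoform was 2.66% in rods (2.62 to 2.7), 1.72% in cones, 1.22% in AC, 0.946% in BC and 0.761% in MG, and 0 of 829 in RGC. Rods stood above all other classes here.

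Pde6d, the carrier of prenylated proteins, was highest in cones. It was at 1711 CPM in cones (1681 to 1741), 795.7 in rods (788.3 to 803.2), 555.6 in AC, 429.9 in RGC, 402.7 in BC and 258.9 in MG. RGC and BC overlapped, and the other neighbours were apart. The level in cones was 2.15-fold that in rods (2.107 to 2.193), 4.248-fold that in BC and 6.607-fold that in MG. Of tested genes, 8.44% had a lower ratio of rods to cones than Pde6d. It had 2 isoforms (ENSMUSG00000026239.14, chr1:86542994-86582629, minus strand), the annotated one with 5 exons and 150 codons. The unannotated isoform lacks exon 4, printed above, whose 106 nt are not a multiple of 3; the frame then stops in the last exon after 93 codons. It had 4.05% of rod counts (1785 of 44112, 3.86 to 4.23), 3.19% in cones (2.89 to 3.52), 3.72% in BC, 4.6% in MG (3.62 to 5.75) and 2.08% in AC (1.91 to 2.26). In RGC it had 1 of 1509 counts (0.0663%, 0.00168 to 0.369), below every other class.

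**Figure D4:**
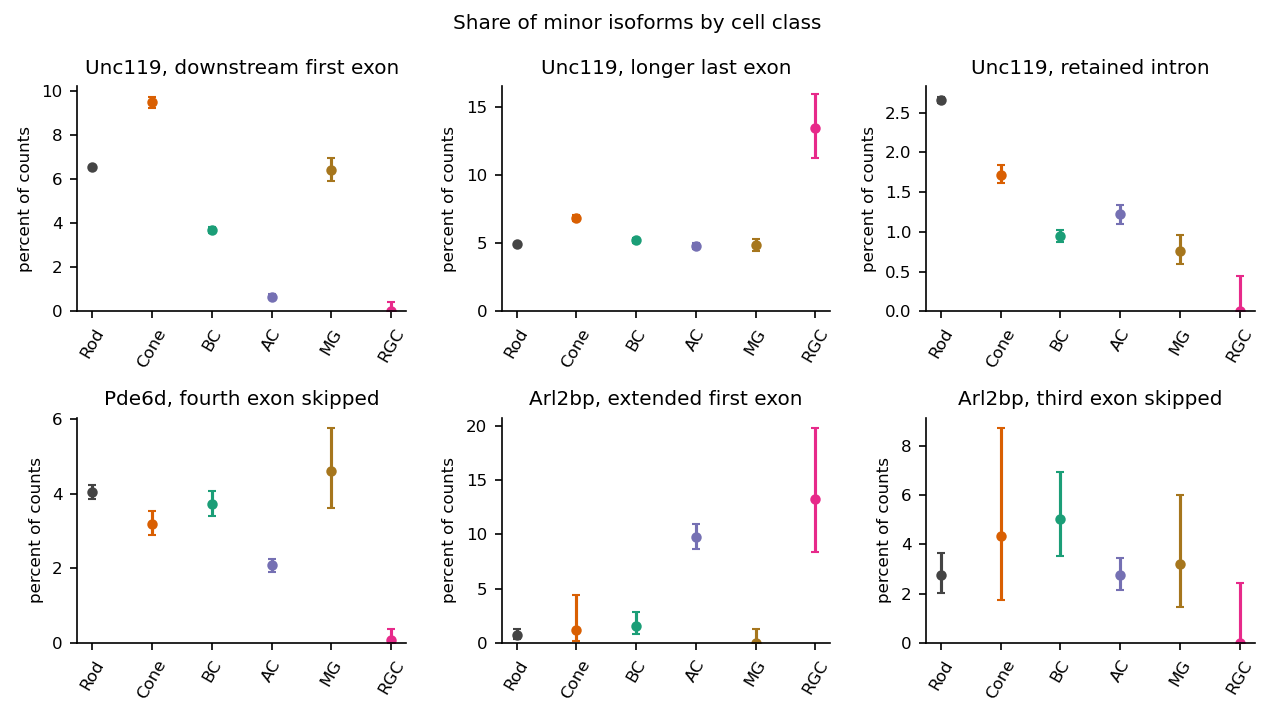
Share of counts, in percent, on 6 minor isoforms of Unc119, Pde6d and Arl2bp in each class, with exact 95% Clopper-Pearson intervals. RGC lies apart in several panels: it has 13.5% for the longer last exon of Unc119, 0 of 829 for its downstream first exon and 1 of 1509 for the skipped Pde6d exon.

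The genes were read together by a rule of size: a difference of at least 2-fold, with at least 20 counts in 1 of the 2 columns. Against cones, Arl13b was higher and Pde6d lower in rods, that is 1 of 7 in each direction, beside 32.6% of all tested genes higher and 8.99% lower. Against AC, Arl3, Arl13b and Unc119 were higher and Arl2 lower (33.7% and 32.7% of all genes). Against BC, Arl13b and Unc119 were higher and 0 of 7 lower (29.6% and 23.0%). Against MG, Arl3, Arl13b, Unc119 and Pde6d were higher and Rp2 lower (38.7% and 21.7%). Against RGC, Arl3, Arl13b and Unc119 were higher and Arl2 lower (53.7% and 20.1%). The count of 1 higher of 7 against cones, and the counts of 2 to 4 against the other 4 classes, are near what these backgrounds give. Arl3 lies close to the 2-fold line: against MG its log2 ratio of 1.03 was 0.85 with TMM factors and 0.66 by the median of ratios, which left 3 genes higher, and against RGC its 1.01 was 0.89 by the median of ratios, which left 2. The median log2 ratio of rods to BC was 0.85 over the 7 genes and 0.22 over all tested genes; against RGC it was 0.89 and 1.25.

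In the cone column, 2 to 4 of the 7 genes were at least 2-fold higher than in another class. Against AC, Arl3, Arl13b, Unc119 and Pde6d were higher and Arl2 and Arl2bp lower, beside 20.3% of all tested genes higher and 41.4% lower. Against BC, Arl13b, Unc119 and Pde6d were higher and 0 of 7 lower (12.6% and 29.9%). Against MG the same 3 were higher and Rp2 and Arl2bp lower (23.3% and 28.0%). Against RGC, Unc119 and Pde6d were higher and Arl2 and Rp2 lower (36.4% and 27.5%). The median log2 ratio of cones to AC was 1.03 over the 7 genes and -0.51 over all. The comparisons share the rod or the cone column, so they are not independent. Arl13b rests on 22 cone counts here, and its ratios of cones to AC, BC, MG and RGC all turn below 1 when its annotated isoform is counted alone, with a log2 ratio to RGC of -3.87 in place of 0.59. That isoform had 1 count in cones, 1 in MG and 5 in BC, so these turns rest on 1 cone count and give no firm direction. Without Arl13b, which a minimum of 100 counts leaves out here, the genes higher in cones were 3 against AC, 2 against BC and 2 against MG.

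**Figure D5:**
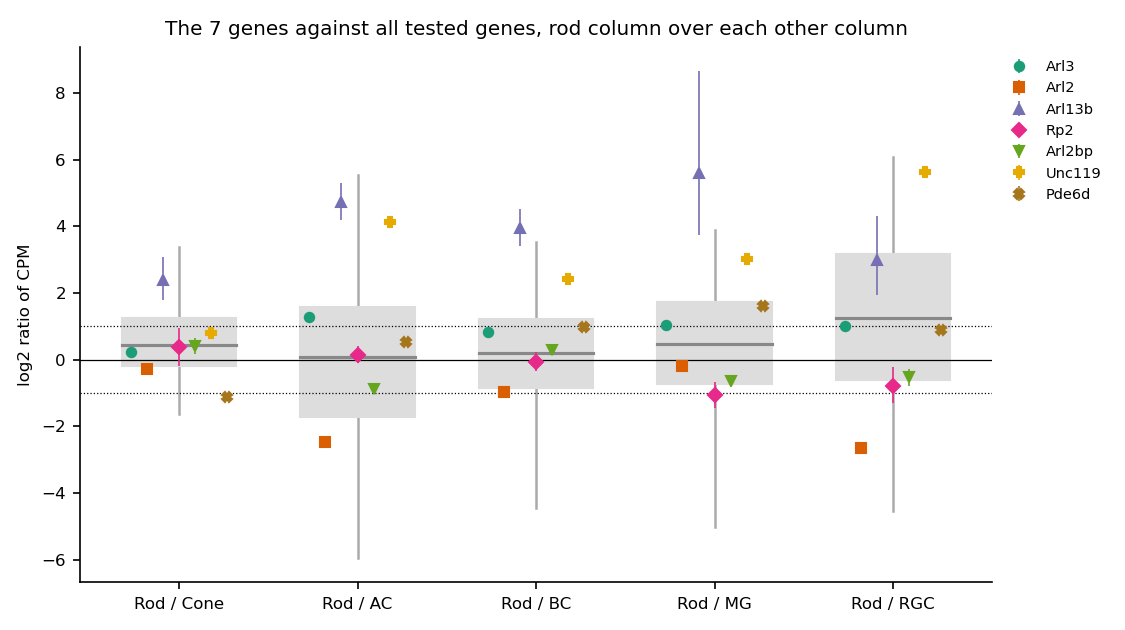
Log2 ratio of CPM, rod column over each other column, for the 7 genes (points, with exact 95% conditional intervals) beside all tested genes (box, middle 50% with the median as a line; whiskers, 5th to 95th percentile; dotted lines, 2-fold). Arl13b and Unc119 each lie above the box in 4 of 5 comparisons. Below it lie Arl2 against cones, AC, BC and RGC, Pde6d against cones, and Rp2 against MG and RGC.

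A switch between 2 classes was called for a gene with at least 20 counts in both, a different most abundant isoform in each, and a share that differed by at least 50 percentage points. Of the 5 genes with more than 1 isoform, Arl13b and Rp2 met this rule. Arl13b did so between AC and BC (9.23% of genes tested in that pair switched), between AC and cones (8.05%) and between AC and rods (10.8%). Rp2 did so between RGC and each other class, where 8.19% of genes switched against AC, 12.7% against BC, 11.7% against cones, 13.1% against MG and 13.3% against rods. Over all pairs, 25% of 7317 tested genes (1828) switched at least once. Unc119, Pde6d and Arl2bp kept the same most abundant isoform in all 6 classes. Both switched genes were the 2 with the fewest counts in the set. With a minimum of 100 counts 0 of the 5 were called, but none of the switched pairs could be tested at that minimum. Arl13b had 100 counts or more only in rods, and Rp2 had 32 counts in RGC.

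Unannotated isoforms were 11 of 23 in the set (47.8%), 6 of them of Arl13b, and held 0.39% of its counts, beside 60.3% of isoforms and 5.58% of counts over all Ensembl genes. The share differed by gene: 0 in Unc119, Arl3 and Arl2, 3250 of 98201 counts in Pde6d, 167 of 5521 in Arl2bp, 140 of 814 in Rp2 and 820 of 967 in Arl13b. Of the 15 other isoforms compared in structure with the most abundant isoform of their gene, 7 skipped an exon, 5 had another last exon and 2 had an added exon. An alternative first exon, a retained intron, an alternative 5′ splice site and an alternative 3′ splice site occurred in 1 isoform each.

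The cargo and the enzymes that lipidate it were described by lists of genes. Of 9 prenylated cargo genes, 7 were highest in rods, as 24.6% of all genes were, and 2 in cones (8.29%). The list is made up largely of rod and cone phototransduction genes. Pde6a and Pde6c in it are also markers used to check the columns. These counts therefore follow in part from the choice of list. In rods 7 of 9 were at least 2-fold higher than in AC (33.7% of all tested genes) and 7 than in RGC (53.7%), with 0 lower, and against cones 5 were higher (32.6%) and 2 lower (8.99%). Gngt1, the gamma subunit of rod transducin, was at 44570 CPM in rods, 21830 in cones, 6378 in BC, 5190 in MG, 247.1 in AC and 0.5698 in RGC. Gngt2, the cone counterpart, was at 1708 CPM in cones and 45.1 in rods. Pde6b, a catalytic subunit of the rod phosphodiesterase, was at 520.2 CPM in rods and 13.14 in cones, whereas Rab28, a small GTPase, ranged only from 160 CPM in MG to 390 in rods.

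Of the acylated cargo genes, 3 are described. Gnat1, the rod transducin alpha subunit, was at 2221 CPM in rods, 90.6 in cones and 34.2 in BC. Gnat2, the cone alpha subunit, was at 1605 CPM in cones, 85.87 in BC and 36 in rods. Cys1, which encodes a ciliary protein, was at 29.68 CPM in MG, 21.79 in BC and 3.481 in rods. Of 8 genes for enzymes that attach or process lipids and their cofactors, 4 were highest in rods, 2 in cones and 2 in AC. Of all genes, 24.6%, 8.29% and 21.3% were highest in these columns. Against cones 4 of the 8 were at least 2-fold higher in rods (32.6% of all tested genes), and against AC 5 (33.7%). Against BC 4 were higher (29.6%), against MG 6 (38.7%) and against RGC 7 (53.7%), with 0 lower in each. The RGC count rests in part on low levels. The lowest rod level of a gene at 0 in RGC was 0.3788 CPM, below the 0.855 CPM that 3 RGC counts give. Aipl1, a chaperone of prenylated phosphodiesterase, was at 3474 CPM in cones, 2304 in rods and 0 counts in RGC. Fnta, a subunit shared by protein prenyltransferases, ranged from 100.7 CPM in BC to 171.5 in rods. Rce1, which cleaves prenylated proteins, was at 179.9 CPM in rods and 33.62 in RGC, and Nmt1, which attaches myristate, at 35.44 in cones and 4.843 in RGC.

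Of 9 relatives, regulators and tubulin cofactors, 4 were highest in cones and 1 in each other class. Of all genes, 8.29% were highest in cones, 24.6% in rods, 21.3% in AC, 18.0% in MG, 13.9% in RGC and the rest in BC. Between rods and cones 0 of 8 tested differed 2-fold, beside 32.6% of all genes higher and 8.99% lower in rods. Arl6, a GTPase that recruits the BBSome coat, was at 1304 CPM in cones, 829.6 in rods and 111 to 167.3 elsewhere. Cfap36, an Arl3-binding protein with a domain like that of Arl2bp, ranged from 117.7 CPM in MG to 253.9 in cones. Tbce, a tubulin cofactor, was highest in RGC (54.99 CPM), and Elmod3, of a family of GTPase regulators, in cones (32.16 CPM).

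The genes most alike in pattern were those with the highest Pearson r of log2(CPM + 1) over the 6 columns, among 9572 genes with at least 100 counts; the columns share libraries and no p is given. For Arl3 they were Ccndbp1 (0.9898), Bbs5 (0.987) and Memo1 (0.9862), and for Arl2 Stx7 (0.9969), Pcyt2 (0.9965) and Cdkn2d (0.996). For Arl13b they were Ppp2r5e (0.9988), Hdac2 (0.9907) and Mcm2 (0.9883), and for Rp2 Irx5 (0.9937), Rhoc (0.9887) and Gamt (0.9827). For Arl2bp they were Stard3nl (0.9944), Tomm34 (0.9832) and Cmtm8 (0.98). For Unc119 they were Usp16 (0.9964), Sufu (0.9944) and Ankrd33b (0.9943), and for Pde6d Thoc2 (0.994) and Thrb (0.9688). The set contains no pair of its own genes in these lists. Over 6 points such values are easily high, and 5 of the 21 names remained when the RGC column was left out.

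The 2 first exons of Unc119 gave different shares over the classes, so the bases in front of each were searched for the core motifs of 2 photoreceptor factors, TAATCC for CRX (GGATTA on the other strand) and TGCTGA for NRL (TCAGCA on the other strand). In RefSeq windows on GRCm38.p6 from 250 bases before to 50 after a start, TAATCC was in 7.06% and TGCTGA in 19.5% of 32851 windows. The stretch before the upstream exon is chr11:78343245-78343481 and that before the downstream exon chr11:78346460-78346665, both on the plus strand. Capitals mark a motif match.
Before the upstream first exon: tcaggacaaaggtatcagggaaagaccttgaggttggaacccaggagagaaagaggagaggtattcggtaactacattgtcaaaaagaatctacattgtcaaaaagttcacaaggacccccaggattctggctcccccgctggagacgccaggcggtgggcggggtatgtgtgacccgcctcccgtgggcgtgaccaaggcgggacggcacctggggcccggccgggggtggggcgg
Before the downstream first exon: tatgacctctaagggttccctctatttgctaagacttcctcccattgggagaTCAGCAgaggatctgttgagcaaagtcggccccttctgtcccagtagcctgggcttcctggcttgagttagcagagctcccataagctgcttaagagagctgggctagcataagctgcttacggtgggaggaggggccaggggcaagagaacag
The downstream window holds 1 TGCTGA match, on the minus strand at -198 from the RefSeq start, and the upstream window holds neither motif. Another RefSeq start of Unc119, at 78345584, has a TAATCC match at -118. TGCTGA was also found at -16 in Arl2bp and at +23 in Arl13b, and neither motif in the windows of Arl3, Arl2, Rp2 and Pde6d. These matches describe letters in the windows and do not show binding.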

How the data were processed

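The authors deposited a table of whole-number counts per isoform in 6 cell-class columns, used here as deposited, and transcript models whose source field names FLAIR, per the file headers; the submitters' processing notes name build mm10. Models are deposited for isoforms with a rod count. The columns name no library, so samples were not compared and no replicate exists. Counts were summed per gene and divided by column totals (CPM). Intervals are exact Poisson for levels, exact conditional binomial for ratios and Clopper-Pearson for shares (95%). The 2-fold rule and the switch rule were run over all genes; the alternative scalings used edgeR 4.0.16 and DESeq2 1.42.0 scaling factors only, with Python 3.11.15, pandas 2.3.3 and scipy 1.17.1. Scripts were tested on simulated data. Frames were read from GENCODE M21 transcript sequence. The genes, lists, markers and rules were chosen with earlier results of these data known. Named were all 7 genes, isoforms with at least 10% of a gene's counts in a class with 20 counts, the leading unannotated isoform, the 3 most alike genes and up to 4 genes a list, by counts; other isoforms and events were chosen after their values were seen. A few genes that these rules would name are not reported here.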

Additional observations from a re-analysis of the deposited data

How the results depend on the processing

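No paired analysis was possible because libraries are not told apart in the table, and no replicate could be left out for the same reason. Of 543 values recomputed under an alternative, 429 stayed within their interval or within 1.5 times, 111 moved and 3 reversed. The reversed values, those past 2-fold that turned sign, are log2 ratios of Arl13b with annotated isoforms only: -1.74 for cones over AC, -0.33 over BC and -0.25 over MG. Under the same choice the ratio to RGC, not past 2-fold before, turned from 0.59 to -3.87, and Rp2 in cones over AC from -0.21 to 0.15. The annotated isoform of Arl13b had 1 count in cones, so all its changes of sign rest on that count. Scaling by the median of ratios moved the median gene by up to -0.366 (log2, rods over MG) and 0.321 (cones over AC), and of 126 log2 ratios under either scaling 0 past 2-fold changed direction, but 5 smaller ones did: by the median of ratios Arl3 in rods over cones (0.24 to -0.02), Arl2 in cones over MG (0.09 to -0.02) and Rp2 in cones over AC (-0.21 to 0.11), and Arl2bp in cones over BC (-0.11 to 0.02 with TMM and 0.06 by the median of ratios). With that scaling 2 genes were highest in cones, 0 in AC and 2 in MG, 1 was lower in rods than in BC and 1 lower in cones than in AC; with TMM 1 was lower in rods than in BC and 1 lower in cones than in RGC. Genes higher in rods than in MG were 3 under both scalings, and those higher than in RGC 2 by the median of ratios.

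With a fold of 1.5, rods exceeded cones in 2 genes and BC in 4, and were below AC in 2, BC in 1, MG in 2 and RGC in 2; cones were below BC in 1 and above RGC in 4. With a fold of 4, rods exceeded MG in 2 and were below cones in 0 and MG in 0; cones exceeded AC in 2, BC in 1 and RGC in 1, and were below AC in 1, MG in 0 and RGC in 1. With a minimum of 100 counts, cones were above AC in 3, BC in 2 and MG in 2 and below MG in 1 and RGC in 1. At that minimum 0 genes switched, but the pairs that switched before could not be tested. Thinned to the RGC total, cones were above AC in 3, BC in 2 and MG in 2 and below MG in 1, and 1 gene switched: Rp2 in 20 of 20 draws and Arl13b in 0. Arl13b could not be called there, because its 29 AC counts, part of each of its switches, fall below the minimum of 20 when thinned. The Rp2 counts in rods, AC, BC and cones also fall near or below that minimum when thinned. Only MG keeps enough Rp2 counts to be tested against RGC in every draw. The Rp2 draws are not split by pair, so they do not bear on the switch against the other classes.

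Of isoforms with at least 100 counts 21.4% were unannotated, with 0.365% of counts. Of the 21 most alike genes, 12 remained with a pseudocount of 0.1, 11 with 10, 5 without RGC and 4 by Spearman's rank. With the isoform of most exons as reference, 1 had an added exon. Depth limits Arl13b outside rods and Rp2 in cones and RGC, where 30 or fewer and 32 or fewer counts decide the shares.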
